A study of Mus musculus with 38 samples.

Results

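Pre-plasmablasts whose floxed Blimp1 allele was targeted in B cells were compared with control activated B cells, by RNA sequencing of sorted mouse cells. The comparison used 4 of the 38 samples of the series, 2 libraries of each group. The deficient pre-plasmablasts had the genotype Blimp1(GFP/fl) Cd23(Cre/+) and were sorted as CD138-negative, GFP-positive and CD22-high. The activated B cells had the genotype Blimp1(GFP/+) Cd23(Cre/+) and were sorted as CD138-negative and GFP-negative. Control pre-plasmablasts, Blimp1(GFP/+) Cd23(Cre/+), CD138-negative and GFP-positive with no CD22 gate, served as the reference for the same step with a control Blimp1 allele. All of these cells came from a C57BL/6 background, had been stimulated with lipopolysaccharide (LPS) for 4 days, and carried Cre and the GFP allele. Genotype, sort gate and CD22 gate therefore differ together in these comparisons and cannot be told apart. Nothing in the labels ties the libraries to separate mice or cultures, and p-values therefore measure the spread between these libraries, which may be technical.

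Blimp1, the product of Prdm1, is a zinc finger repressor and activator that drives activated B cells toward antibody-secreting plasma cells. The GFP allele reports transcription of Prdm1, and GFP-positive, CD138-negative cells stand between the activated B cell and the CD138-positive plasmablast. Blimp1 is known to silence B cell genes such as Pax5, Ciita and Bcl6, while IRF4 and the unfolded protein response factor XBP1 take part in building the secretory apparatus. The comparison addresses which changes accompany Prdm1 transcription where Blimp1 itself is lacking.

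The gates were checked first. Prdm1 was measured at 7.45 and 10.7 RPKM (reads scaled to transcript length and library size) in the activated B cells and at 199 and 171 RPKM in the deficient pre-plasmablasts. Here and below, library 1 of a group is given before library 2, which carry numbers of an earlier and a later number series. The locus was thus transcribed in both GFP-positive libraries, at a level 1.02 lower on the log2 scale than the 429 and 327 RPKM of control pre-plasmablasts (adjusted p = 0.010), a difference that no longer passed without deficient library 2 or control library 1 (adjusted p up to 0.0593). A gene-level RPKM does not resolve the floxed part, so it checks transcription of the locus and not its deletion. Cd22, the gated surface receptor, was at 345 and 309 RPKM in the deficient pre-plasmablasts, 493 and 470 in activated B cells, and 28.5 and 38.3 in control pre-plasmablasts. Sdc1, which encodes CD138, was below 1 RPKM in all 4 libraries compared.

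The cells kept the RNA of B cells. Over 10 general B cell markers, the summed level was 4660 and 4910 RPKM in activated B cells and 5422 and 5742 RPKM in the deficient pre-plasmablasts, against 2773 and 2973 RPKM in control pre-plasmablasts. Without the gated Cd22 the sums were 4167 and 4440, 5077 and 5433, and 2745 and 2934 RPKM, which leaves the CD22 gate of the deficient cells in place. Of the markers of other blood cells, 7 of 17 T cell markers, 7 of 20 myeloid markers, 8 of 16 natural killer and dendritic cell markers and 4 of 15 erythroid markers were listed in the files. Cd8b1, a T cell coreceptor chain, rose from 0.0382 and 0.0210 RPKM to 4.99 and 5.09 RPKM, while the T cell kinase Lck (0.0121 with the block and 0.044 with quantile normalization, as a fall) and the chain Cd247 were not called. Among myeloid markers Cd68, Fcer1g and Emr1 (F4/80) rose by 1.51, 1.5 and 0.99 on the log2 scale, and Itgam and Tyrobp were not called. Summed myeloid markers went from 67.3 and 76.4 RPKM to 95.2 and 136 RPKM, and summed T cell markers from 11.1 and 12.9 to 13.8 and 14.7 RPKM. The dendritic cell gene Flt3 fell by 1.01 and the erythroid-list gene Car2 by 0.60. The calls of Fcer1g (without activated library 1 or deficient library 2, adjusted p up to 0.0608), Emr1 (without activated library 1, 0.053, or at a pseudocount of 0.1, 0.0781) and Car2 (without any 1 of the 4 libraries compared or either plasmablast library, up to 0.153, or with these 2 groups alone, 0.0754) were not kept. The part of other cells in the results below was not tested. In such bulk libraries, fewer cells of a type and less RNA per cell cannot be told apart.

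Of 10473 genes tested, 1089 were higher in the deficient pre-plasmablasts than in activated B cells (10.4% of those tested) and 796 were lower (7.60%), by limma on log2(RPKM + 1) at an adjusted p under 0.05. Changes of 2-fold or more made up 370 of the rises and 159 of the falls, and changes of 4-fold or more 76 and 20. The median gene moved by 0.004 on the log2 scale. For the same step in control cells, 2117 genes were higher (20.2%) and 2931 lower (28.0%), a split that became 2428 and 2298 with median-of-ratios scaling. The deficient and control pre-plasmablasts differed directly in 2553 genes called higher in the deficient cells (24.4%) and 1681 called lower (16.1%). With that scaling this last split became 1858 higher and 2045 lower, as the scaling moved the median gene of that contrast from 0.12 to 0.002. The 2 pre-plasmablast comparisons with activated B cells share the activated libraries, so their values are set side by side below and the direct contrast is used for any difference between them.

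**Figure D1:**
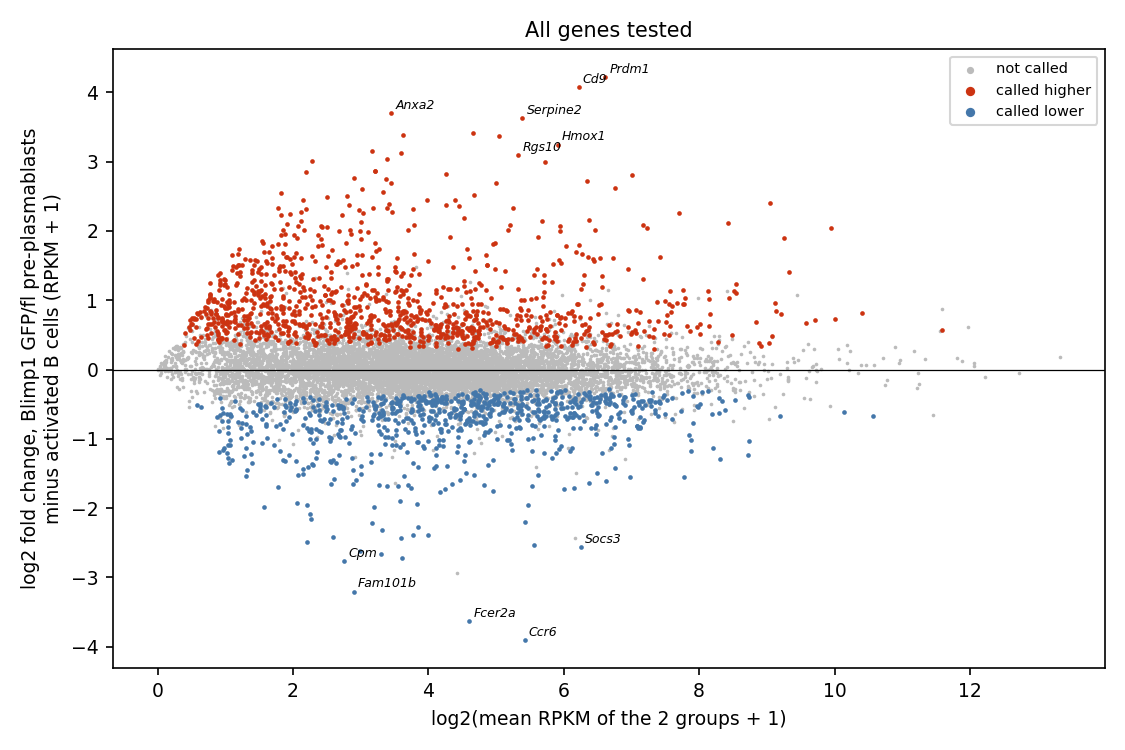
Each point is 1 of the 10473 genes tested, with the log2 of the mean RPKM of the 2 groups plus 1 on the horizontal axis and the log2 fold change of deficient pre-plasmablasts over activated B cells on the vertical axis; red and blue points passed the test. The 1089 red and 796 blue points reach from Prdm1 at 4.22 down to Ccr6 at -3.90.

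The 2 number series were paired across groups (library 2 departed from library 1 in the same genes in each group), and a fit with the series as a block called 2319 genes higher (22.1%) and 2158 lower (20.6%). The 1089 and 796 calls of the unblocked fit were all among them. Without the activated library 1, activated library 2, deficient library 1 or deficient library 2, 506, 597, 653 and 634 genes were called higher and 257, 328, 394 and 306 lower. Leave-out counts below follow that order of libraries and come from the unblocked fit. List counts below stand beside the shares over all genes tested, 10.4% higher and 7.60% lower, or 22.1% and 20.6% with the block. For control pre-plasmablasts against activated B cells the shares to set beside them were 20.2% higher and 28.0% lower. In the direct contrast of deficient against control pre-plasmablasts they were 24.4% and 16.1%. Of 280 list members or named genes called, 114 kept their call without any 1 of the 8 libraries of the fit.

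After Prdm1, the largest rise belonged to Cd9, a tetraspanin found on plasma cells. It was at 9.50 and 4.67 RPKM in activated B cells and at 194 and 85.9 RPKM in the deficient pre-plasmablasts, a log2 fold change of 4.07 ± 0.63 (SE, adjusted p = 0.0071). Both deficient libraries lay far above both activated ones, although library 1 was about as far above library 2 in the 2 groups. Anxa2, a calcium-dependent phospholipid-binding protein, went from 0.666 and 0.473 RPKM to 19.4 and 19.3 RPKM (log2 fold change 3.70 ± 0.14, adjusted p = 9.27e-05). It was at 1.51 and 1.55 RPKM in control pre-plasmablasts, 3.01 lower on the log2 scale than in the deficient cells. Serpine2, a serine protease inhibitor, went from 5.11 and 5.40 RPKM to 75.3 and 77.6 RPKM, and the cell cycle inhibitor Cdkn2b (p15) from 2.55 and 4.10 to 37.8 and 52.3.

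Several of the other large rises encode secreted or surface proteins of immune cells. Il10, the anti-inflammatory cytokine, rose from 0.518 and 2.32 RPKM to 19.8 and 15.4 RPKM, and was at 96.4 and 80.9 RPKM in control pre-plasmablasts. Tnfsf15, a TNF family ligand, rose from 0.945 and 1.42 RPKM to 21.6 and 21.7 RPKM. In control pre-plasmablasts it was at 0.403 and 0.525 RPKM, and the direct contrast was 3.95 (adjusted p = 4.03e-05). Tnfrsf8 (CD30) rose by 3.16 on the log2 scale, and Dnase1l3, a secreted nuclease, by 3.38. Dnase1l3 was also 2.79 above control pre-plasmablasts. Hmox1 (heme oxygenase), Sytl1 (a vesicle-docking Rab27 effector) and Rgs10 (a regulator of G protein signalling) completed the 12 largest rises, at 3.25, 3.13 and 3.10. Rgs10 stood at 68.2 and 74.0 RPKM in deficient and at 76.2 and 76.4 RPKM in control pre-plasmablasts, a difference that did not pass the test (-0.10, adjusted p = 0.55).

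The largest falls were in 2 surface receptors of B cells. Ccr6, the receptor for the chemokine CCL20, was at 76.3 and 82.3 RPKM in activated B cells and at 3.89 and 4.90 RPKM in the deficient pre-plasmablasts (log2 fold change -3.90 ± 0.34, adjusted p = 0.0010). Fcer2a (CD23), the low-affinity IgE receptor, fell from 38.3 and 49.4 RPKM to 1.72 and 3.70 RPKM (-3.64 ± 0.40, adjusted p = 0.0020). Control pre-plasmablasts held 4.15 and 7.35 RPKM of Ccr6 and 0.987 and 2.08 RPKM of Fcer2a. In the unblocked fit neither was called between the 2 kinds of pre-plasmablast (adjusted p = 0.54 and 0.34). With the series as a block Fcer2a was called, 0.53 above control pre-plasmablasts on the log2 scale (adjusted p = 0.00843), and Ccr6 was not (0.187). Fcer2a is the CD23 gene under whose control Cre was expressed here, in all groups.

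Among the other falls were Cpm (carboxypeptidase M, -2.76), Lfng (a Fringe glycosyltransferase that modifies Notch, -2.72), the adaptor Grap2 (-2.67), the receptor Slamf1 (-2.62), Fam101b (-3.21) and the actin-binding Ablim1 (-2.54). Socs3, a feedback inhibitor of cytokine signalling, fell from 111 and 148 RPKM to 17.7 and 24.6 RPKM (-2.56). Pag1, an adaptor that recruits the kinase Csk, fell by 2.42 and Zfp318, a zinc finger protein needed for IgD, by 2.43. The call of Zfp318 ended without activated library 1, activated library 2 or deficient library 1 (adjusted p up to 0.108), and the other 11 of the 12 largest falls and all 12 largest rises were kept in all 8 leave-outs. 1300014I06Rik went down in the deficient cells alone: it was at 7.10 and 6.51 RPKM in activated B cells, 0.5 and 0.296 in deficient and 9.84 and 9.64 in control pre-plasmablasts (direct contrast -2.95).

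Of 12 regulators of the plasma cell program, 9 rose and none fell in the deficient pre-plasmablasts, with a median log2 fold change of 1.37. In control pre-plasmablasts 11 rose and 1 fell, with a median of 2.88. Prdm1 is 1 of the 12, and its GFP reporter defined the gates. Without it, 8 of 11 rose in the deficient cells (median 1.16) and 10 rose and 1 fell in control cells (median 2.73). Irf4, a factor required for plasma cells, went from 26.4 and 33.2 RPKM in activated B cells to 91.3 and 89.6 RPKM (1.58 ± 0.14, adjusted p = 0.0011). Control pre-plasmablasts had 330 and 288 RPKM, so Irf4 was 1.76 below them. Zbtb20, a zinc finger factor of long-lived plasma cells, rose from 3.81 and 3.96 RPKM to 26.3 and 24.8 RPKM (2.44 ± 0.09). It was higher than in control pre-plasmablasts, which had 7.01 and 6.92 RPKM (direct contrast 1.74, adjusted p = 6.22e-05).

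The secretory regulators rose by less than in control cells. Creb3l2, a membrane-bound factor for secretory genes, rose from 1.66 and 2.35 to 12.7 and 15.6 RPKM. Ern1, the IRE1 sensor that splices Xbp1 RNA, rose from 2.86 and 3.95 to 11.8 and 13.2 RPKM. Bhlha15 (Mist1), a basic helix-loop-helix factor of secretory cells, rose from 0.699 and 2.23 to 5.75 and 6.84 RPKM, against 99.6 and 110 RPKM in control pre-plasmablasts. All 3 were below control pre-plasmablasts, by 1.25, 1.10 and 3.86 on the log2 scale. None overlapped between deficient and activated cells, where over all genes tested 28.2% had both deficient libraries above both activated ones and 27.3% had both below. Ell2, an elongation factor for secreted immunoglobulin transcripts, rose by 1.16, Zbtb38 by 1.14 and the stress sensor Atf6 by 0.44. Xbp1 was at 44.0 and 82.5 RPKM in activated B cells, 113 and 161 RPKM in the deficient and 1156 and 1443 RPKM in control pre-plasmablasts. Its deficient libraries lay above the activated ones, but the difference of 1.15 ± 0.31 missed the threshold (adjusted p = 0.0503) and passed it with the library series as a block (adjusted p = 0.000407), with median-of-ratios scaling (0.0483) and with quantile normalization (0.0492). Foxo3 and Tbl1xr1 changed by 0.06 and 0.03 and were not called.

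Leaving out the libraries gave 7, 9, 8 and 6 regulators called higher. The call of Bhlha15 ended without deficient library 2 (adjusted p = 0.0649), that of Ell2 without activated library 1 or deficient library 2 (up to 0.0606), and that of Atf6 without any 1 of the 4 libraries compared (up to 0.143) and with these 2 groups alone (0.0575).

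**Figure D2:**
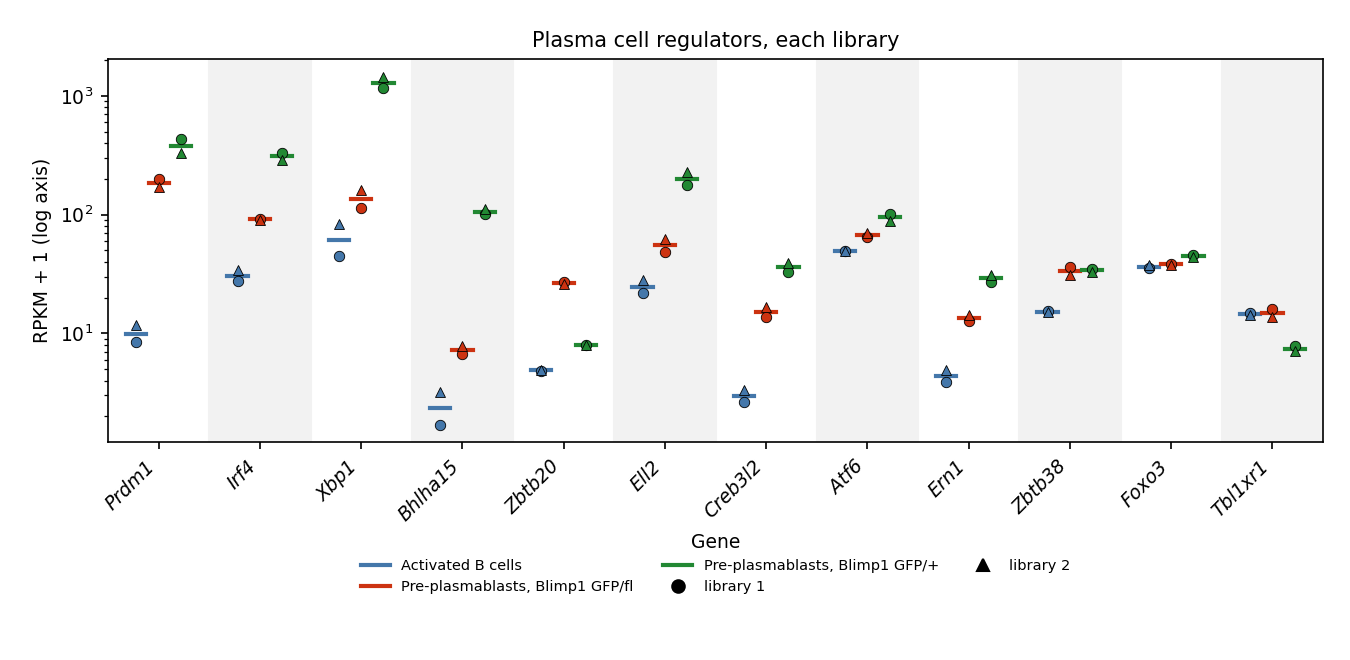
RPKM plus 1 on a log axis for the 12 plasma cell regulators, with circles for library 1 and triangles for library 2 of each group and a line at the mean of the log values. Irf4, Creb3l2, Ern1 and Bhlha15 sit between the activated B cells and the control pre-plasmablasts, while Zbtb20 is highest in the deficient cells (26.3 and 24.8 RPKM).

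Surface molecules of plasma cells moved in the same direction. Of 19 tested, 7 rose and none fell (median 0.55), and with the series as a block 14 rose. Cxcr4, the receptor that draws plasma cells to bone marrow, went from 32.7 and 25.0 RPKM to 223 and 147 RPKM and stood at 215 and 153 RPKM in control pre-plasmablasts (direct contrast -0.002, adjusted p = 1.00). The inhibitory receptor Tigit rose from 1.01 and 2.90 to 12.4 and 12.5 RPKM, and was 2.24 below control pre-plasmablasts. The costimulatory receptor Cd28 and the adhesion receptor Cd44 rose by 1.60 and 1.57, and Cd44 exceeded its control pre-plasmablast level by 0.71. Leave-outs gave 5, 7, 6 and 5 of these calls. Those of Slamf7 (1.60) and Lag3 (1.12) ended, Slamf7 without activated library 1 or deficient library 2 (adjusted p up to 0.113) and Lag3 without any 1 of the 4 (up to 0.195).

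Products of antibody secretion divided. Of 12 tested members 4 rose (median 0.51): Il10, the pERp1 chaperone gene 2010001M09Rik, the signal peptidase subunit Sec11c and the coactivator Pou2af1. The pERp1 gene, whose product helps assemble immunoglobulin, went from 405 and 358 RPKM to 1747 and 1421 RPKM (2.05 ± 0.27, adjusted p = 0.0039), and was at 6620 and 4366 RPKM in control pre-plasmablasts. The J chain gene Igj, which links polymeric antibody, was at 7.33 and 118 RPKM in activated B cells and 18.2 and 107 RPKM in deficient cells, against 1621 and 3403 RPKM in control pre-plasmablasts. It followed the number series within both of the first 2 groups and did not differ between them (adjusted p = 0.855). The leukocyte protease inhibitor Slpi behaved likewise, at 4.88 and 24.6, 10.8 and 27.5, and 817 and 784 RPKM. Fkbp11, Fkbp2 and Txndc5, folding enzymes of the secretory pathway, were not called (0.32, 0.03 and 0.41) and were 4.74, 2.72 and 3.83 below control pre-plasmablasts. In the direct contrast 10 of the 12 members were lower in the deficient cells and 1 was higher. Leave-outs gave 2, 3, 2 and 2 rises. The call of Sec11c ended without activated library 1 or either deficient library (adjusted p up to 0.113) and in the fit of these 2 groups alone (0.0565), and that of Pou2af1 without any 1 of the 4 (up to 0.097), with quantile normalization (0.0627) and with these 2 groups alone (0.0547).

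Genes of the endoplasmic reticulum (ER) rose in part. The unfolded protein response acts on many of them through the ER stress element, a promoter sequence read by ATF6 with NF-Y. Promoters of the listed secretory genes were therefore searched for it as CCAAT, 9 bases of any kind and CCACG, on both strands from 250 bases before to 50 after the start. The 6 sequences below (RefSeq, GRCm38.p6; 5′ to 3′ on the strand of the gene, capitals marking the element, or its reverse complement where it starts with CGTGG) span the range from the largest rise to no called change.
Derl3 (chr10:75893212-75893290, + strand): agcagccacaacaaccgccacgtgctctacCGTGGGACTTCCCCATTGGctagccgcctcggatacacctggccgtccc
Creld2 (chr15:88819490-88819568, + strand): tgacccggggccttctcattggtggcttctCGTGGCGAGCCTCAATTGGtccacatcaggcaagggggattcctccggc
Alg12 (chr15:88819490-88819568, - strand): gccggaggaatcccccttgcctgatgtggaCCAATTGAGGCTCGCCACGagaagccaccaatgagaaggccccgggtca
Hsp90b1 (chr10:86705608-86705686, - strand): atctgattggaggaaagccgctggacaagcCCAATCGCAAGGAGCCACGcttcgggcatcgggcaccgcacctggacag
Hspa5 (chr2:34771995-34772073, + strand): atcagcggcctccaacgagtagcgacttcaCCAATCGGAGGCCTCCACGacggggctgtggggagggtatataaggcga
Syvn1 (chr19:6046502-6046580, + strand): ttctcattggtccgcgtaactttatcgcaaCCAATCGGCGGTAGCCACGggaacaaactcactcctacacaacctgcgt

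The element was found in the promoters of 37 of 27025 genes (0.137%) and of 13 of the 8168 tested genes with a promoter sequence (0.159%). Among the listed genes it was in 7 of 24 ER chaperone promoters (29.2%), 2 of 26 in the ER stress and degradation list (7.69%) and 1 of 38 in the N-glycosylation list (2.63%). It was in 5 of 824 genes called higher (0.607%) and in 0 of 638 called lower. The element was picked as one known to act on such genes, so its share in the ER lists tests nothing. The Hsp90b1 promoter held 2 matches, not all of which are marked above. A match describes the sequence only, and no binding was measured here.

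The 10 listed genes with the element differed in how far they rose without Blimp1. Derl3, a degradation factor of the ER membrane, went from 19.4 and 26.2 RPKM to 93.9 and 103 RPKM (2.07 ± 0.14, adjusted p = 0.000509). Creld2 went from 43.7 and 62.4 to 126 and 143 RPKM (1.35 ± 0.18), and the chaperone Hsp90b1 (GRP94) from 183 and 263 to 462 and 578 RPKM (1.23 ± 0.21). The disulfide isomerase Pdia6 (0.62) and the co-chaperone Dnajc3 (0.52) rose by less. Hspa5 (BiP), the main ER chaperone, was at 204 and 318 RPKM in activated B cells and 310 and 415 RPKM in deficient cells, so its groups overlapped and it was not called (0.49 ± 0.31, adjusted p = 0.36, 0.00128 with the block). Calr (0.29), Canx (0.22) and Syvn1 (0.14) were not called either, although Calr and Canx passed with the block (adjusted p = 0.00585 and 0.021). Alg12, a mannosyltransferase gene, shares its element with Creld2 in opposite orientation. It was at 9.59 and 8.68 RPKM in activated and 14.4 and 10.1 RPKM in deficient cells and was not called (0.37 ± 0.18, adjusted p = 0.21, 0.0149 with the block).

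All 10 were called higher in control pre-plasmablasts than in activated B cells, where Hspa5 reached 1195 and 1851 RPKM and Derl3 490 and 530 RPKM. The call of Hsp90b1 in the deficient cells ended without activated library 1 or deficient library 2 (adjusted p up to 0.0656), that of Pdia6 without any 1 of the 4 libraries compared (up to 0.0959) and that of Dnajc3 without activated library 1 or either deficient library (up to 0.119) and with these 2 groups alone (0.0523).

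**Figure D3:**
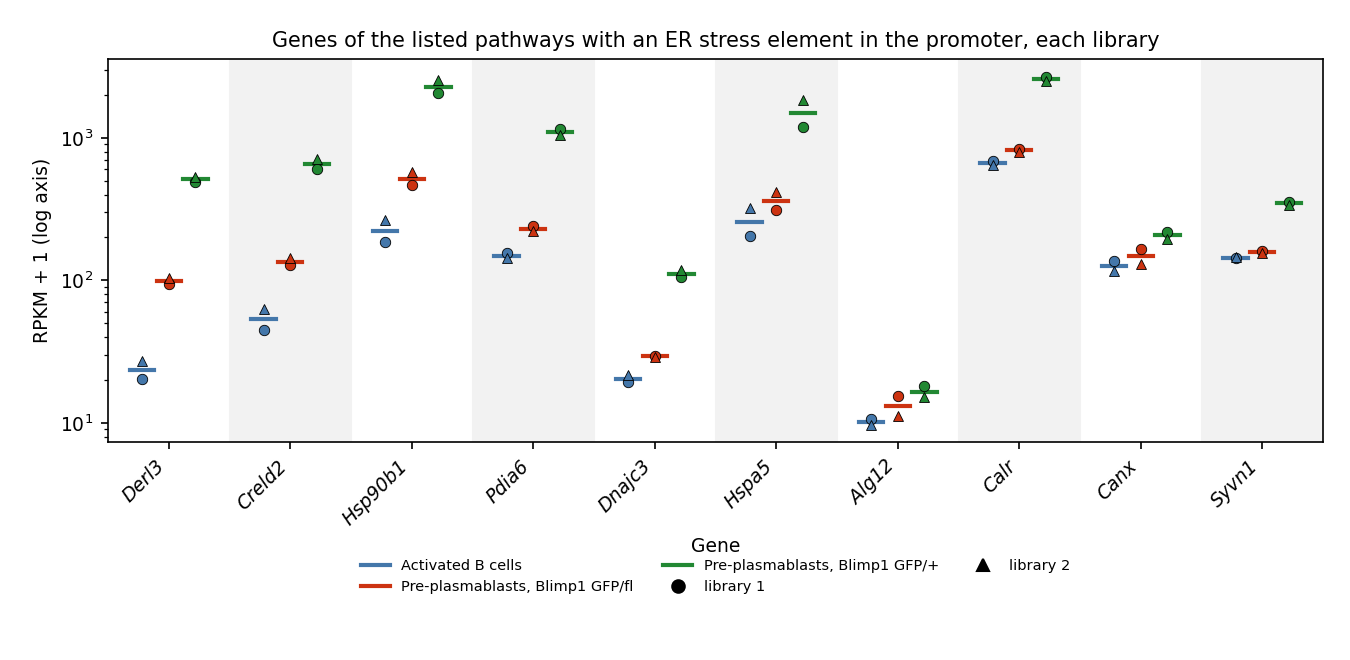
RPKM plus 1 on a log axis for the 10 listed genes with an ER stress element, ordered by the rise in deficient cells, with circles for library 1 and triangles for library 2 and a line at the mean of the log values. From Derl3 (2.07) to Syvn1 (0.14) the red deficient libraries move from well above the blue activated ones to beside them, while the mean line of the green control pre-plasmablasts is the highest in each gene. For Alg12 single libraries of the 2 pre-plasmablast groups overlap.

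Across the 30 ER chaperone and folding genes tested, 17 rose and none fell (median 0.51). Beside the genes above, Dnajb9, Manf and Hyou1 rose by 1.16, 0.83 and 0.74 and kept their calls in all leave-outs. Of 32 genes for ER stress signalling and degradation, 10 rose (median 0.27). Edem1 and Edem2, which pass misfolded glycoproteins to degradation, rose by 1.70 and 1.01, and the PERK kinase gene Eif2ak3 by 0.78. Of 25 genes for entry into the ER, 10 rose (median 0.49), among them the translocon-associated Ssr4 (0.94) and Ssr2 (0.70), and Spcs3 (0.75) of the signal peptidase, whose call ended without activated library 2 (adjusted p = 0.05). Of 49 vesicle transport genes 13 rose (median 0.30), led by the coat genes Copz2 (1.53) and Sec24d (1.38). Of 45 N-glycosylation genes 11 rose (median 0.32), with Gfpt1, the entry enzyme of hexosamine synthesis, going from 15.4 and 15.0 to 34.0 and 30.8 RPKM (1.04). No member of these 5 lists fell. Against control pre-plasmablasts 29 of 30, 27 of 32, 19 of 25, 40 of 49 and 28 of 45 members were lower, and 0, 0, 0, 1 and 1 were higher. Over all genes tested, 16.1% were lower and 24.4% higher in that contrast.

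The size of these counts depended on the fit. Leave-outs gave 5, 9, 9 and 5 ER chaperone rises, 7, 7, 8 and 6 in the degradation list, 4, 6, 5 and 6 in the entry list, 3, 4, 7 and 4 in the vesicle list and 2, 5, 4 and 3 in the N-glycosylation list. In the blocked fit the rises numbered 25, 17, 18, 32 and 25, and the falls 0, 1, 1, 1 and 4. Fitting these 2 groups alone left 10 ER chaperone rises and 6 in the vesicle list.

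Targets of ATF4, the factor of the integrated stress response, stood apart from the chaperones by their values. Of 30 amino acid synthesis, carrier and tRNA charging genes, 26 rose in control pre-plasmablasts (median 0.94), and 2 rose and 2 fell in the deficient cells (median -0.08). Asns, the asparagine synthetase gene, was at 24.5 and 37.4 RPKM in activated, 22.5 and 35.6 in deficient and 87.3 and 97.1 in control pre-plasmablasts. Atf4 itself was at 193 and 194, 159 and 162, and 443 and 423 RPKM, and its difference of -0.26 was not called (adjusted p = 0.067, 0.00403 with the block). Psat1, of serine synthesis, fell by 0.65 and Shmt2, of one-carbon metabolism, by 0.71. The call of Shmt2 ended without any 1 of the 4 libraries or either plasmablast library (adjusted p up to 0.218) and under 4 other settings (0.050 to 0.053). Ddit4, a stress-induced inhibitor of mTORC1, rose by 0.94 and passed its control pre-plasmablast level by 0.47, although that difference ended without any 1 of the 4 pre-plasmablast libraries or either plasmablast library (adjusted p up to 0.133) and with median-of-ratios scaling (0.0782). The mTORC1 list had 3 rises and 3 falls among 30 genes, beside shares of 10.4% and 7.60% over all genes tested. The falls were Gatsl3 (-1.66), Sesn1 (-0.78) and the amino acid carrier Slc38a2 (-0.65). With the block the ATF4 list had 3 rises and 8 falls and the mTORC1 list 6 and 6, and each leave-out left 1 rise in either list and 1 fall in the ATF4 list.

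**Figure D4:**
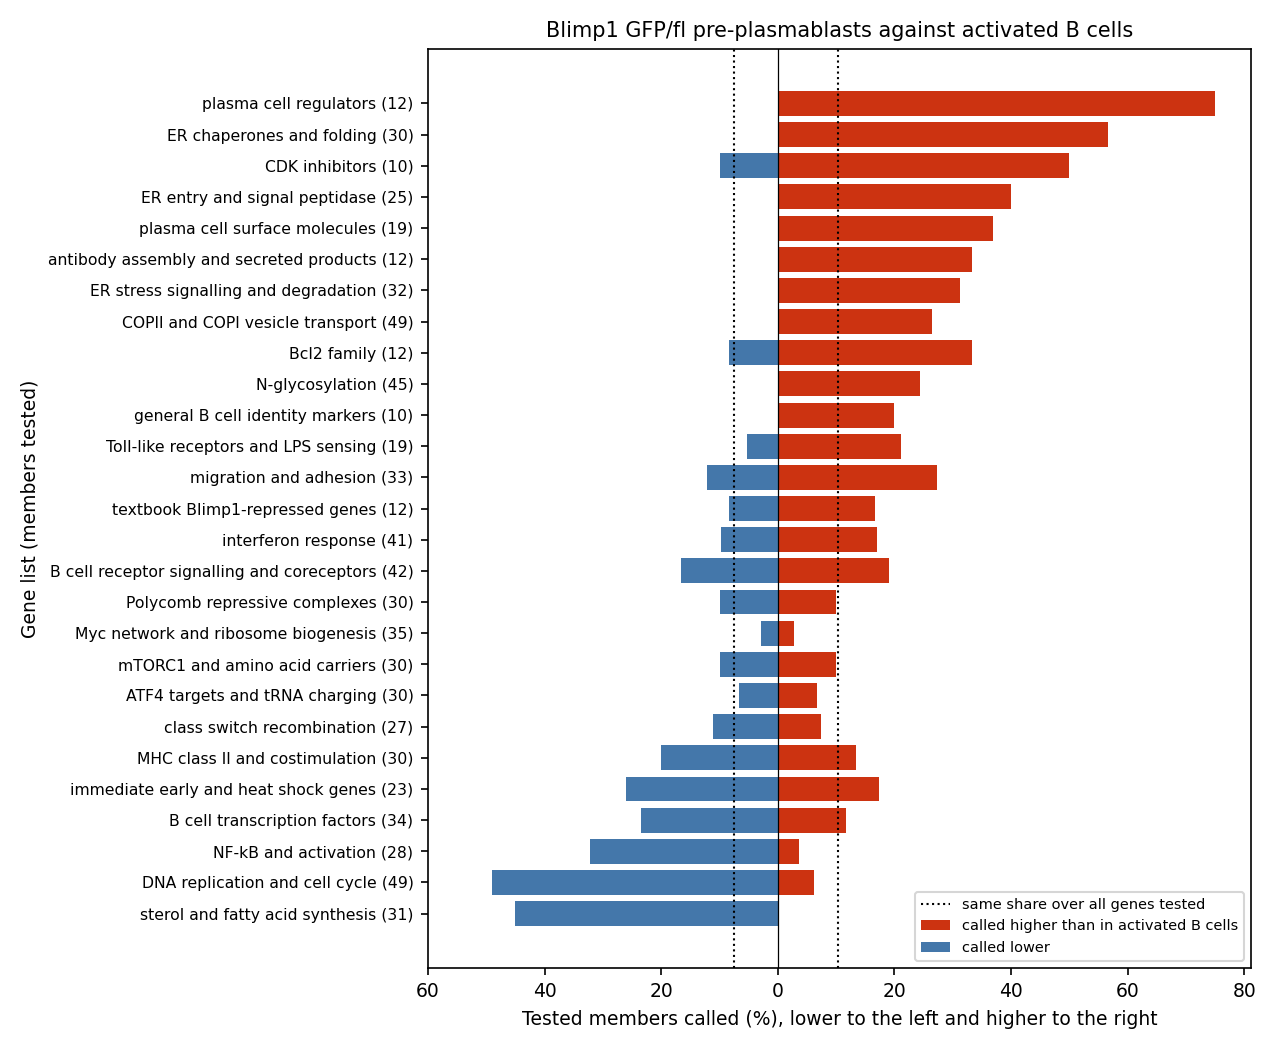
Percent of the tested members of each gene list called higher (red, right) or lower (blue, left) in deficient pre-plasmablasts than in activated B cells, with the members tested in brackets and dotted lines at the shares over all genes (10.4% and 7.60%). Regulator, ER and secretory lists have calls to the right, and cell cycle and sterol lists mostly to the left.

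Most genes that Blimp1 is known to repress did not pass the test against activated B cells. Of the 12 tested, 2 rose and 1 fell in the deficient pre-plasmablasts (median -0.22), whereas 9 fell and none rose in control pre-plasmablasts (median -3.10). Over all genes tested, 10.4% rose and 7.60% fell in the deficient and 20.2% and 28.0% in control pre-plasmablasts. In the direct contrast 10 of the 12 were higher in the deficient cells and 1 was lower. Cd22 is 1 of the 12, and the deficient cells alone were gated on its product. Without it, 2 of 11 rose and 1 fell (median -0.13), 8 fell in control pre-plasmablasts (median -2.91), and 9 were higher and 1 lower in the direct contrast. Leaving out this gene does not undo the CD22 gate, whose part in the other members was not tested. Spib, an Ets factor of B cells, was at 546 and 569 RPKM in activated B cells, 500 and 524 in deficient and 14.9 and 30.2 in control pre-plasmablasts. Klf2, a migration regulator, was at 249 and 382, 191 and 326, and 8.79 and 22.3 RPKM. For both the deficient libraries lay close to the activated ones (-0.12 and -0.30, adjusted p of 0.891 and 0.809), and 4.52 and 4.05 above control pre-plasmablasts on the log2 scale.

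The master regulators Pax5 and Ciita took middle positions. Pax5, which maintains B cell identity, was at 193 and 294 RPKM in activated, 118 and 175 in deficient and 13.5 and 25.6 in control pre-plasmablasts. Its difference of -0.72 ± 0.48 did not pass (adjusted p = 0.38) and passed with the series as a block (0.0044). Ciita, the MHC class II activator, was at 143 and 127, 78.9 and 71.4, and 17.3 and 16.8 RPKM, with groups that did not overlap but an adjusted p of 0.071 (0.017 with the block, 0.0185 with these 2 groups alone). Cd22 was 0.56 lower (adjusted p = 0.315, 0.0464 with these 2 groups alone). Id3 changed by 0.36 and was not called, and Cd79b by 0.27 (adjusted p = 0.25, 0.0053 with the block).

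Bcl6, the germinal center repressor, was the sole member to fall in the unblocked fit. It was at 7.32 and 8.99 RPKM in activated B cells, 1.73 and 2.41 in the deficient and 5.64 and 7.36 in control pre-plasmablasts (-1.58 ± 0.17, adjusted p = 0.0020, direct contrast -1.29). Myc rose from 68.0 and 90.0 to 120 and 125 RPKM (0.64) and Cd79a, a chain of the B cell receptor, from 702 and 847 to 1157 and 1405 RPKM (0.72). The call of Myc ended without activated library 1 or either deficient library (adjusted p up to 0.122) and that of Cd79a without any 1 of the 4 libraries or either plasmablast library (up to 0.20). Both ended with these 2 groups alone (0.0704 and 0.0624), and that of Cd79a with quantile normalization (0.0897). With the block 3 members rose and 4 fell, with these 2 groups alone 0 and 3, and in the leave-outs 0, 1, 0 and 0 rose while Bcl6 fell each time. The Blimp1 core sequence AGTGAAAG was in 0 of the 7 promoters of this list that had a sequence and in 1.35% of tested promoters. It was in 1.46% of promoters of genes called higher and 1.88% of those called lower. At so low a share 7 promoters would seldom hold a match, so the 0 does not bear on Blimp1 binding, which was not tested.

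**Figure D5:**
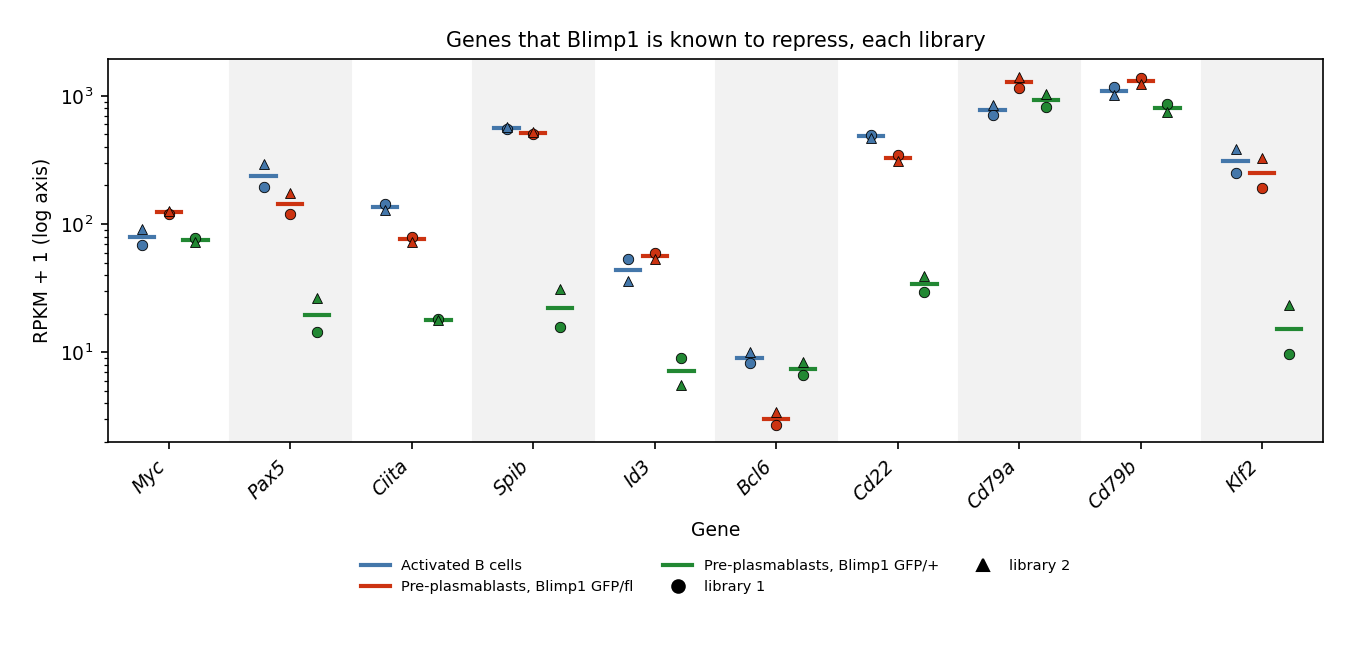
RPKM plus 1 on a log axis for 10 of the 12 genes that Blimp1 is known to repress, with circles for library 1 and triangles for library 2 and a line at the mean of the log values. Spib and Klf2 remain near the activated level in the red deficient libraries while the green control pre-plasmablasts lie far below, Cd22 was part of the sort gate, and Bcl6 is lowest in the deficient cells.

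Other B cell transcription factors changed both ways. Of 34 tested, 4 rose and 8 fell (median -0.08), or 7 and 13 in the blocked fit. Bach2, a repressor that holds back plasma cell differentiation, fell from 22.1 and 21.7 RPKM to 2.95 and 3.86 RPKM (-2.38 ± 0.16, adjusted p = 0.000396). Control pre-plasmablasts had 4.17 and 4.59 RPKM, which did not differ beyond the spread (adjusted p = 0.18). Irf8 fell from 467 and 431 to 188 and 179 RPKM (-1.29), close to the 145 and 153 RPKM of control cells. Bcl11a fell by 1.18 but was 2.29 above control pre-plasmablasts. The calcium-regulated factor Nfatc1 rose from 39.0 and 45.2 to 125 and 132 RPKM, Myb from 12.7 and 13.2 to 39.8 and 33.1, and the E protein gene Tcf4 from 47.4 and 38.5 to 125 and 98.8. All 3 also exceeded control pre-plasmablasts, by 0.92, 0.65 and 0.94, the last of which ended without deficient library 1 or control library 2 (adjusted p up to 0.0751). Leave-outs gave 3, 3, 4 and 4 rises and 3, 4, 4 and 4 falls, and the call of Bcl11a ended without activated library 1 or deficient library 2 (adjusted p up to 0.0552).

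In the B cell receptor list 8 of 42 genes rose and 7 fell, against 8 and 27 in control pre-plasmablasts. The falls included the Fc receptor homolog Fcrl1 (-1.13) and the exchange factor Vav1 (-0.57). The rises included the coreceptor part Cd81 (1.02), Fcrla (0.85) and the CD20 gene Ms4a1 (0.79). Most of these calls depended on the fit. Without any 1 of the 4 libraries compared, in unblocked fits, fewer rises and fewer falls were called. The block gave 17 and 16, and these 2 groups alone 3 and 6. That of Fcrl1 was kept in all leave-outs. Those of Cd81, Fcrla and Ms4a1 each ended without 3 of the 4 libraries compared, Cd81 without all but activated library 1, Fcrla without all but deficient library 2 and Ms4a1 without all but activated library 2 (adjusted p up to 0.0785, 0.059 and 0.158). That of Ms4a1 also ended with quantile normalization (0.0968) and with these 2 groups alone (0.0669). That of Vav1 ended without activated library 1 or deficient library 2 (up to 0.0676).

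Antigen presentation and costimulation genes changed both ways. Of 30 tested, 4 rose and 6 fell (median -0.24), and in control pre-plasmablasts 2 rose and 19 fell (median -0.91). H2-Ob, a modulator of peptide loading, fell from 73.9 and 78.7 to 37.9 and 39.9 RPKM (-0.95), and Icosl, the ligand of ICOS, from 1.62 and 2.34 to 0.0795 and 0.252 RPKM (-1.35). The receptor Cd40 fell by 0.82. Tnfsf9 (4-1BB ligand) rose from 4.07 and 6.55 to 30.6 and 31.5 RPKM and Pdcd1lg2 (PD-L2) from 1.79 and 2.99 to 8.73 and 6.14 RPKM. Both ligands were above control pre-plasmablasts, by 2.78 and 2.57, and Cd274 (PD-L1) rose by 0.87. Leave-outs gave 2 rises each time and 2, 3, 2 and 2 falls, the block gave 6 and 15, and these 2 groups alone 2 and 6. The call of Cd40 ended without any 1 of the 4 libraries (adjusted p up to 0.203) and at a pseudocount of 0.1 (0.0548), and that of Cd274 without any 1 of the 8 (up to 0.204), with median-of-ratios scaling (0.0527) and with these 2 groups alone (0.0755).

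Of 19 genes for sensing LPS and other microbial ligands, 4 rose and 1 fell. Tlr9, the receptor for bacterial DNA, was at 107 and 110 RPKM in activated, 132 and 133 in deficient and 2.65 and 5.16 in control pre-plasmablasts (direct contrast 4.82, adjusted p = 0.0001). The kinase Irak2 rose by 0.60 and was kept in all leave-outs, whereas the calls of Tirap (1.04, ended without activated library 1 or deficient library 1, adjusted p up to 0.053) and Tlr4 (0.74, ended without activated library 2 or either deficient library, up to 0.0875) did not hold. In the class switch list 2 of 27 rose and 3 fell, beside shares of 10.4% and 7.60% over all genes tested. Lig4, a DNA ligase of end joining, rose by 1.05, Parp1 fell from 189 and 161 to 98.5 and 94.5 RPKM (-0.85), and Cib1 fell by 1.00, a call that ended without either activated library or deficient library 1 (up to 0.070). With the block the LPS list had 7 rises and 3 falls and the switch list 3 and 8. Leave-outs gave 2 rises each time and 0, 1, 1 and 0 falls in the LPS list, and 1, 2, 2 and 2 of both rises and falls in the switch list.

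Cell cycle genes were lower as a list. Of 49 replication and division genes, 24 fell and 3 rose (median -0.51), beside 7.60% and 10.4% over all genes tested. In control pre-plasmablasts 24 fell and 7 rose (median -0.42), beside larger shares of 28.0% and 20.2% over all genes. Birc5 (survivin) fell from 24.2 and 23.6 RPKM to 10.7 and 12 RPKM (-1.02), the mitotic kinase Plk1 from 52.7 and 46.8 to 28.1 and 26.3 (-0.85) and the cyclin Ccna2 from 41.2 and 49.9 to 25.2 and 25.4 (-0.82). The replication helicase gene Mcm2 and the licensing factor Cdt1 fell by 0.61 and 0.72, and both were also below control pre-plasmablasts, by 0.50 and 0.84. These 5 kept their calls in all leave-outs. The 3 rises were the G1 regulators Ccnd2 (60.0 and 69.9 to 159 and 200 RPKM) and Cdk6 (0.99), and the phosphatase Cdc25b (0.77). Leave-outs gave 9, 15, 14 and 15 falls, the fit of these 2 groups alone 14 and the block 37.

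Of 10 genes in a list of cyclin-dependent kinase inhibitors and related p53 targets and cyclins, 5 rose and 1 fell (median 0.56), and 3 of the rises were inhibitors. Cdkn2a (p16 and p19Arf) went from 18.8 and 22.1 RPKM to 137 and 144 RPKM (2.73 ± 0.10, adjusted p = 9.27e-05) and Cdkn1a (p21) from 33.7 and 33.6 to 122 and 159 RPKM (2.02). The deficient libraries lay above both activated ones for each, and Cdkn1a was 0.70 above control pre-plasmablasts. In that direct contrast 1 of the 10 members was called higher and 5 lower (median -0.39). Cdkn2a was among the lower ones (-0.38, adjusted p of 0.0578 with these 2 groups alone). In control pre-plasmablasts 6 of the 10 rose and 0 fell against activated B cells (median 0.76). Cdkn2b, given above, and the p53 target Trp53inp1 (1.13) rose as well, as did Ccng1 (0.99), whose call ended without activated library 1 or deficient library 2 (adjusted p up to 0.130) and with these 2 groups alone (0.0547). Cdkn3, a phosphatase expressed in cycling cells, fell by 1.10. Of 35 Myc network and ribosome biogenesis genes, Myc was the sole rise and the Max partner Mxd3 (-0.93) the sole fall, against 8 and 3 with the block.

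Sterol and fatty acid synthesis genes were lower as well. Of 31 genes tested, 14 fell and none rose (median -0.50), and in control pre-plasmablasts 20 fell and 3 rose (median -0.56). Acat2, a thiolase of the sterol pathway, fell from 24.4 and 24.3 to 11.2 and 10.3 RPKM (-1.11), and Pmvk, of the mevalonate pathway, from 53.7 and 42.0 to 24.3 and 21.8 (-1.01). Lss and Sqle, cyclase and epoxidase of the same pathway, fell by 0.90 and 0.63. Insig1, the sterol feedback protein, fell by 0.61 but was raised in control pre-plasmablasts (direct contrast -1.56). Its call ended without activated library 1 (adjusted p = 0.0511). The list gave 6, 8, 10 and 7 falls in the leave-outs, 8 with these 2 groups alone and 25 with the block.

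Some genes of NF-kB signalling fell. Of 28 tested, 9 fell and 1 rose (median -0.26), and in control pre-plasmablasts 16 fell and 4 rose. The cytokine genes Tnf and Lta fell from 22.5 and 15.0 to 5.13 and 5.06 RPKM (-1.67) and from 11.3 and 9.92 to 3.45 and 3.41 RPKM (-1.39), and the nuclear cofactor Bcl3 from 391 and 418 to 178 and 192 RPKM (-1.13). All 3 were lower still in control pre-plasmablasts (direct contrasts of 1.88, 1.77 and 0.58). Ltb, the partner of Lta, fell by 1.42, and Il2ra rose by 0.64. Leave-outs gave 3, 4, 5 and 3 falls and no rise, and the block 14 falls and 3 rises. The calls of Ltb and Il2ra ended without any 1 of the 4 libraries (adjusted p up to 0.0919 and 0.0752).

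Of 23 immediate early and heat shock genes, 6 fell and 4 rose (median -0.48). The early growth response gene Egr3 fell from 165 and 131 RPKM to 51.3 and 44.0 RPKM (-1.61), and the orphan receptor Nr4a1 from 5.70 and 6.53 to 1.83 and 2.41 RPKM (-1.19). Egr1 was at 199 and 49.7 RPKM in the activated libraries and 21.5 and 14.4 in the deficient ones. Its groups did not overlap, but the activated libraries lay 4-fold apart and it was not called (adjusted p = 0.058, 0.000262 with the block). Dusp2, a MAP kinase phosphatase, fell by 1.71, and Ier5 rose by 0.81, Atf3 by 0.76 and Jun by 0.62. In control pre-plasmablasts 7 members rose and 2 fell, and 12 members were lower in the deficient than in the control cells. Leave-outs gave 2, 8, 3 and 2 falls and 2, 2, 3 and 2 rises, the block 14 and 6, and these 2 groups alone 4 and 2. The call of Dusp2 ended without activated library 1 or deficient library 2 (adjusted p up to 0.0693), that of Jun without either activated library (up to 0.0573) and that of Atf3 without activated library 2 or either deficient library (up to 0.114), and with these 2 groups alone (0.0632).

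Migration receptors were reordered. Of 33 genes, 9 rose and 4 fell. S1pr3, a sphingosine phosphate receptor, rose from 4.73 and 6.30 to 30.7 and 38.2 RPKM (2.45), and was 1.91 above control pre-plasmablasts. Ccr10, a receptor of mucosal plasma cells, rose from 0.110 and 0.294 to 2.03 and 2.82 RPKM (1.5). The integrin chains Itgb1 and Itgb7 rose by 0.70 and 0.78, and were 2.26 and 3.09 above control pre-plasmablasts, where they fell by 1.56 and 2.31. Ptger4, a prostaglandin receptor, and S1pr4 fell by 0.89 and 0.84. Ccr7, the receptor for lymph node entry, was at 145 and 142, 134 and 108, and 26.8 and 24.4 RPKM, and was not called. Leave-outs gave 5, 5, 7 and 6 rises and 3 falls each time, the block 11 and 9, and these 2 groups alone 6 and 4. The call of Itgb7 ended without either activated library or deficient library 2 (adjusted p up to 0.095).

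Interferon response genes moved both ways. Of 41, 7 rose and 4 fell (median -0.05), beside shares of 10.4% and 7.60% over all genes, whereas 7 rose and 26 fell in control pre-plasmablasts. The antiviral genes Ifit1 and Rsad2 rose by 1.38 and 1.08 and Oas2 fell by 0.89. Leave-outs gave 2, 2, 2 and 3 rises and 0, 0, 1 and 0 falls, with Rsad2 kept throughout. The block gave 13 and 10 and these 2 groups alone 3 and 1. The call of Ifit1 ended without deficient library 2 (adjusted p = 0.0564) and that of Oas2 without any 1 of the 4 libraries or either control pre-plasmablast library (up to 0.149) and at smaller pseudocounts (0.0816 and 0.243).

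Of 12 Bcl2 family genes, 4 rose and 1 fell. Bcl2l11 (BIM), a death-promoting member, fell from 59.2 and 57.4 to 29.0 and 28.4 RPKM (-1.0 ± 0.09), as in control pre-plasmablasts at 29.2 and 30.1 RPKM. Bbc3 (PUMA) rose by 0.96, Bmf by 0.66, and Bcl2, the survival factor, from 18.7 and 23.4 to 29.6 and 36.1 RPKM (0.62), against 6.94 and 7.81 RPKM in control pre-plasmablasts. The 4 rises became 0, 1, 2 and 0 in the leave-outs. The call of Bbc3 ended without activated library 1 or deficient library 2 (adjusted p up to 0.126), that of Bmf without any 1 of the 4 (up to 0.141) and that of Bcl2 without any 1 of the 8 (up to 0.22), at a pseudocount of 0.1 (0.0504) and with these 2 groups alone (0.0813). Of 30 Polycomb genes 3 rose and 3 fell, beside shares of 10.4% and 7.60% over all genes tested. The blocked fit gave 7 and 6, beside 22.1% and 20.6%, and these 2 groups alone 1 and 1. No rise was called when any 1 of the 4 libraries compared was left out, and the falls were fewer. Ezh2, the methyltransferase of the complex, went from 55.2 and 71.0 to 118 and 125 RPKM (0.95, adjusted p = 0.036), and its call ended without any 1 of the 4 (up to 0.18).

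The direct contrast sorted the changes of the deficient cells into 4 kinds. Genes that rose but stayed below control pre-plasmablasts were led by Bhlha15, Tmem52, 1190002H23Rik (Rgcc), the inhibitory receptor Ctla4 and the pseudokinase Trib1. Ctla4 was at 1.26 and 1.74, 5.19 and 5.25, and 60.7 and 56.5 RPKM in activated, deficient and control cells (direct contrast -3.26). Fam46c, a poly(A) polymerase of plasma cells, was at 43.5 and 47.3, 78.8 and 76.1, and 552 and 478 RPKM (-2.71).

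Genes that rose above control pre-plasmablasts included Ccl22, a chemokine that attracts regulatory T cells. It was at 106 and 153 RPKM in activated, 625 and 489 in deficient and 10.5 and 14.7 in control cells (direct contrast 5.36). Mafa, Mpeg1 (perforin-2), Ccbp2 (an atypical chemokine receptor), Cd300lf and S100a6 had direct contrasts of 4.97, 4.75, 4.45, 3.78 and 3.46. Cd300lf, an inhibitory receptor, went from 10.8 and 10.9 to 96.2 and 89.9 RPKM and was kept in all leave-outs. The calls against activated B cells of Ccl22 and Mafa ended without activated library 1 or either deficient library (adjusted p up to 0.0864 and 0.0985), that of Mpeg1 without any 1 of the 4 (up to 0.112), that of Ccbp2 without activated library 1 or deficient library 2 (up to 0.0831) and that of S100a6 without activated library 2 or deficient library 2 (up to 0.0694). With a pseudocount of 0.1 the calls of Mafa and Ccbp2 ended too (0.0752 and 0.0701).

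Genes that fell but stayed above control pre-plasmablasts included Bcl11a, Shank1 (-1.69, direct contrast 2.56) and the unconventional myosin Myo1f (-1.60, 2.18). The call of Myo1f against activated B cells ended without any 1 of the 4 libraries (adjusted p up to 0.0785) and at a pseudocount of 0.1 (0.0552), and that of Shank1 without either activated library or deficient library 2 (up to 0.0772). Genes that fell and were also below control pre-plasmablasts included Csrp2, Dennd3 and Tmem176a, each kept in all leave-outs. Dennd3 was at 11.1 and 12.4 RPKM in activated, 3.83 and 4.31 in deficient and 27.4 and 24.2 in control pre-plasmablasts (direct contrast -2.40). Zfp36, which destabilizes cytokine mRNA, was at 170 and 118, 60.1 and 74.8, and 388 and 497 RPKM (-2.69), and its call against activated B cells ended without activated library 1 or either deficient library (adjusted p up to 0.113).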

How the data were processed

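Poly(A) RNA was sequenced in strand-specific libraries, per the labels' protocols. The authors deposited RPKM values normalized for GC content, per the file names, and the submitters' processing notes list DESeq 1.8.3, TopHat 1.4.1, HTSeq 0.5.3 and SICER, with mm9 as the build. The annotation, and whether counting used strand, remain not given in the sources used here. Overlapping or antisense genes may share reads. Read depth is unknown: low values held no common step (at most 8.70% of them in the fullest bin of ratios between 2 libraries). Of 11567 entries per file, 126 with 61 repeated names were left out and 11441 used. Genes at 1 RPKM or more in 2 of 8 libraries (10473) were tested with limma 3.58.1 in R 4.3.3 on log2(RPKM + 1), two-sided, with a mean-variance trend and Benjamini-Hochberg adjustment, in 1 fit over activated B cells, both pre-plasmablast groups and plasmablasts. Fold changes carry that scale and so understate the change of low genes. Groups came from the labels. The library number series paired the libraries: deviations of the same series correlated across genes at 0.666 to 0.781 over the 6 pairs of groups, so blocked values are given where they change a call or a count by over 1.5 times.

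Genes were named by rule: Prdm1, Cd22 and Sdc1, the 12 largest called rises and falls without overlap, the leading called members of each list, all regulators and Blimp1-repressed genes, and those leading the direct contrast. Others, such as Igj, Slpi, Asns, Atf4, Tlr9, Egr1, Ccr7 and members cited beyond the leading 3 of a list, were chosen after their values were seen. A few genes that the rule names are counted in their lists but not reported here. Members and lists were chosen with earlier results of these data known, so counts are described beside those of all genes, with no set test. Promoters are from RefSeq (GRCm38.p6), matched by symbol for 8168 tested genes. The scripts were tested on simulated data. Alternatives covered pseudocount, filter, scaling, block, trend, groups fitted and each library left out.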

Additional observations from a re-analysis of the deposited data

Results flagged for a closer look

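Genes called in opposite directions against activated B cells in the deficient and in the control pre-plasmablasts, with the direct contrast called by limma as well, numbered 24 among those reported here. The values are the difference of deficient minus control pre-plasmablasts on the log2(RPKM + 1) scale, which tests the difference itself. Among genes that rose in the deficient and fell in the control cells, the difference was 5.36 for the chemokine Ccl22, 4.97 for Mafa, 4.75 for Mpeg1, 4.45 for Ccbp2, 3.97 for Ac159305.1, 3.95 for Tnfsf15, 3.78 for Cd300lf, 3.46 for S100a6, 3.09 for Itgb7, 2.57 for Pdcd1lg2, 2.26 for Itgb1, 2.26 for Emr1 and 2.01 for Bcl2. Among genes that fell in the deficient and rose in the control cells, it was -2.95 for 1300014I06Rik, -2.69 for Zfp36, -2.54 for Nck2, -2.49 for Slamf9, -2.40 for Csrp2, -2.40 for Dennd3, -2.32 for Tmem176a, -1.56 for Insig1, -1.51 for Slc38a2, -1.09 for Psat1 and -0.81 for Prkcd. Both comparisons share the activated libraries, and the genotypes also differ in the CD22 gate. For 13 of the 24 the call against activated B cells ended when 1 library was left out: Ccl22, Mafa, Mpeg1, Ccbp2, S100a6, Zfp36, Itgb7, Bcl2 and Insig1 as given with the results, Emr1 and Slamf9 without activated library 1 (adjusted p = 0.053 and 0.0547), Nck2 without either activated library or deficient library 1 (up to 0.112), and Prkcd without any 1 of the 4 libraries compared (up to 0.113).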

How the results depend on the processing

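The library series as a replicate block moved the calls to 2319 higher and 2158 lower against activated B cells, and to 4226 higher and 2603 lower against control pre-plasmablasts. Beyond the genes and counts given with the results, it ended no call of a named gene. The fit of the 2 compared groups alone gave 477 genes lower against activated B cells, and 27 named genes lost their call there. The 218 named genes followed through the settings include some that were not called in the main fit, such as Xbp1 and Pax5. Leaving out 1 library gave 506 to 946 genes higher and 257 to 667 lower, the smallest without activated library 1. Against control pre-plasmablasts the ranges were 1735 to 2333 and 1216 to 1560. Over the leave-outs, 8 genes that were not called changed sign: Tbl1xr1 ranged from -0.075 to 0.135, Klf2 from -0.684 to 0.082, Asns from -0.416 to 0.224, Cd247 from -0.215 to 0.219, Fkbp2 from -0.176 to 0.235, Igj from -1.381 to 2.454, Itgam from -0.124 to 0.378 and Slpi from -0.479 to 1.642. Cd247 was also -0.006 with median-of-ratios scaling and -0.072 with quantile normalization. Of 170 named genes called against control pre-plasmablasts, 4 lost the call with median-of-ratios scaling and 5 with quantile normalization. Those scalings left 47.6% and 49.7% of these calls higher in the deficient cells, against 60.3% without them, and moved the median gene of control pre-plasmablasts against activated B cells from -0.12 to -0.02 and -0.05. Pseudocounts of 0.1 and 0.5 ended the calls of 12 and 3 named genes against activated B cells, and removing the filter on low values ended 0. With 2 libraries a group and no counts, small differences could not be resolved, and a missed threshold does not show equal levels.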
